A study of Mus musculus with 6 samples.

Results

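Genes for kinases, phosphatases and phosphodiesterases were described in neocortex of adult male mice that lack the RNA-binding protein KHSRP. The members were the probes whose gene symbol, in the published table of mRNAs that differ in *Khsrp*-/- neocortex, begins with a stem of a kinase, phosphatase or phosphodiesterase family (such as Camk, Mapk, Nek, Pik3, Ppp, Ptp or Pde). Described here are 36 of these probes, of 35 genes, out of 1788 probes in the table and 60915 probes on the array. Of the 36, 29 probes came from the 1522 in the block of higher mRNAs and 7 from the 266 in the block of lower mRNAs. The study counted more mRNAs as lower than as higher, so the lower block used here holds only part of those it found lower. *Camk2d* was the gene with 2 probes. The stem also takes in regulatory subunits, and *Cdkn3*, which is named as a kinase inhibitor and encodes a phosphatase.

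The comparison was between 3 arrays of *Khsrp*-/- mice, which carry a constitutive deletion within *Khsrp* and had been bred onto C57Bl/6, and 3 arrays of wild type littermates. Each array was taken as 1 mouse, which the labels do not state. The arrays were of 1 colour and hybridized with rRNA-depleted RNA from adult cortex. The mutation was present in every cell type rather than in neurons alone. Since *Khsrp* could not be matched to a probe, the genotypes rest on the labels. The signal used here is the log2 intensity after background subtraction minus the 75th percentile of its array, called the scaled log2 signal, so that a value of 0 lies at that percentile and a negative value lies below it. A difference of 1 on this scale is a 2-fold difference, and levels of different probes cannot be compared.

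Protein kinases attach phosphate to proteins and protein phosphatases remove it, and the balance of both sets the state of receptors, channels and transcription factors after a synaptic signal. In cortical neurons, calcium that enters through glutamate receptors binds calmodulin, which switches on the CaM kinases and the phosphatase calcineurin. Phosphodiesterases end cyclic nucleotide signals, and phosphoinositide 3-kinases make the membrane lipids that recruit growth factor effectors. KHSRP binds AU-rich elements in mRNAs and promotes their decay.

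The table was itself selected for change on these arrays, so the direction of every member was fixed by the choice, and the differences below are a description with no test. The higher block was selected on the authors' normalized values, in which its smallest difference was 0.32 on the log2 scale and the smallest among the members was that of *Pik3r3*, at 0.36. The lower block was selected on intensities that had not been scaled between arrays, with a ratio of *Khsrp*-/- to wild type of at most 0.499, and *Ptpn18* was the member nearest to this limit, at 0.477. Genes just outside these limits have no symbol in the table and were not analysed here. The higher block took in smaller differences than the lower block, and it holds 1522 of the 1788 probes. That all members of a group lie in the higher block is therefore no result about the group. No member was saturated. All 36 probes passed the filter of being well above background on at least 3 arrays, and 34 were well above background on all 6. *Nek3* missed it on 1 array of each genotype and *Pde6b* on wild type array 2.

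The arrays did not all carry the genotype difference to the same extent. By the scan times in the file headers, *Khsrp*-/- arrays 2 and 3 and wild type arrays 1 and 2 were scanned on 1 day, and *Khsrp*-/- array 1 and wild type array 3 shared a slide scanned on a later day. The 2 scan days therefore gave separate comparisons of the genotypes, with 2 arrays against 2 and with 1 array against 1. On this reading, the first-day *Khsrp*-/- arrays were on 1 slide and the wild type arrays on another. In first-day differences genotype and slide therefore cannot be told apart. On the second day both genotypes had the same scan time and so, on this reading, shared a slide. Between 71.6% and 82.9% of the spots were well above background on an array, and the median SD between arrays of a genotype was 0.25 on the log2 scale. The number of arrays limits the precision, and no array was labelled as a technical replicate.

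Among the 29 higher-block probes the median difference, *Khsrp*-/- minus wild type, was 0.70 on the log2 scale, with a range from 0.35 for *Pik3r3* to 1.88 for *Pde6b*. The median over all 48364 probes tested with a value on each array was 0.00, and that over the other 1492 probes of the higher block was 0.57. Every *Khsrp*-/- array lay above every wild type array for all 29 of these members. This non-overlap was found for 12.4% of all probes in the same direction. Of the 29, 27 passed an unadjusted p of 0.05 from limma with a difference of at least 0.32 on the log2 scale, as 9.26% of all probes did in this direction. *Pik3r3* and *Ppm1k* did not pass. The difference is the fold threshold of the study. For p, the legend of its volcano plot gives 0.05 with no adjustment named, and its methods give an adjusted p. After Benjamini-Hochberg adjustment over all probes 1 member passed, *Pde6b*, beside 0.0826% of all probes, which are 40 probes, or 46 in both directions. Without *Khsrp*-/- array 1, 9 members passed beside 2046 probes in both directions, and without any other single array 0 members passed, beside 6 to 59 probes. The unadjusted threshold was near for several members. *Camk4* missed it when any array but *Khsrp*-/- array 3 was left out, with differences from 0.30 to 0.45 in those fits, and *Mapk9* when any array but *Khsrp*-/- array 1 was, with differences from 0.31 to 0.40. *Clk3*, *Nek3*, *Ppp1r12a*, *Dusp22*, *Ptp4a1*, *Cdk17* and *Cdkn3* missed it without at least 1 of the arrays, and the smallest difference among these fits was 0.34, for *Nek3*. *Pik3r3* passed it without *Khsrp*-/- array 1, at a difference of 0.43, and so did *Ppm1k*, at 0.62.

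The 7 lower-block probes had a median difference of -0.86, with a range from -1.36 for *Ptpn21* to -0.80 for *Camkk1*, and the other 259 probes of that block one of -1.09. For all 7 the *Khsrp*-/- arrays lay below the wild type arrays, as for 9.9% of all probes, and all 7 passed the unadjusted threshold, as 7.03% of all probes did. None of the 7 passed after adjustment with limma, beside 0.0124% of all probes in this direction. These shares were fixed by the selection and say nothing about the gene families.

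**Figure D1:**
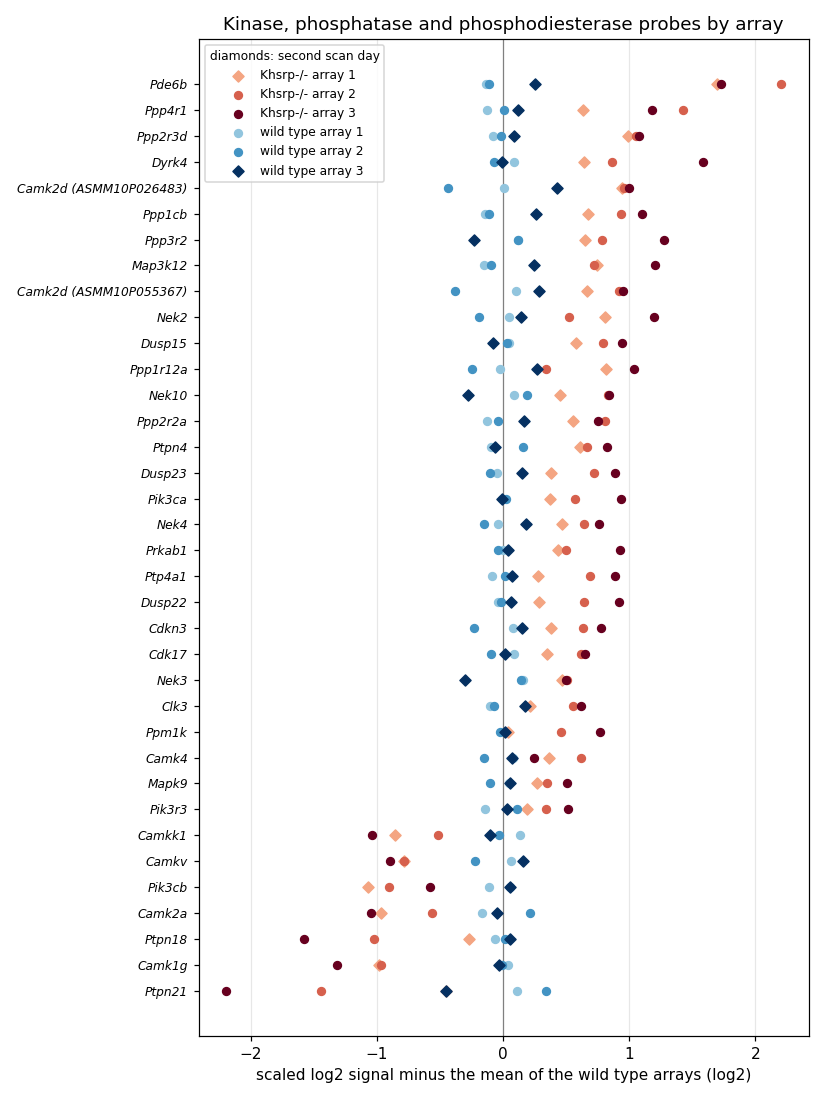
Scaled log2 signal of each of the 36 probes on each of the 6 arrays, minus the mean of the wild type arrays of that probe (x axis, log2), with probes ordered by the genotype difference; diamonds mark the arrays of the second scan day. The 29 higher-block probes lie to the right and the 7 lower-block probes to the left, and *Khsrp*-/- array 1 is the closest of its genotype to the wild type mean for 25 of the 29.

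CaM kinase genes were found in both blocks, which fixed their opposite directions. All 4 CaM kinase genes of the lower block, *Camk1g*, *Camk2a*, *Camkk1* and *Camkv*, were lower in *Khsrp*-/- neocortex by between 0.80 and 1.09 on the log2 scale, or 1.75-fold to 2.13-fold. *Camk2d* and *Camk4*, which came from the higher block, were higher by between 0.41 and 0.97, and so was *Ppp3r2*, a calcineurin regulatory subunit.

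*Camk2a* encodes the alpha subunit of CaM kinase II, an abundant enzyme of excitatory synapses that is needed for long-term potentiation. Its scaled log2 signal, given here and below in the order of arrays 1, 2 and 3 of a genotype, was 4.80, 5.20 and 4.72 in the *Khsrp*-/- mice and 5.60, 5.98 and 5.72 in the wild type mice. The highest *Khsrp*-/- array thus lay 0.40 below the lowest wild type array. The means were 4.91 ± 0.26 (SD, n = 3) and 5.77 ± 0.19 (SD, n = 3), a difference of -0.86 (SE 0.19). It was -0.83 between the arrays of the first scan day and -0.92 between those of the second. In tissue RNA, fewer cells of a type and less RNA per cell cannot be told apart.

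*Camk2d*, the gene of the delta subunit of the same holoenzyme, moved the other way on both of its probes. Probe ASMM10P055367 read 1.33, 1.59 and 1.62 in the *Khsrp*-/- mice and 0.77, 0.28 and 0.95 in the wild type mice. Probe ASMM10P026483 read -0.06, -0.04 and 0.00 against -0.99, -1.44 and -0.57. The table assigns these probes to different transcripts of the gene, and they gave differences of 0.85 (SE 0.21) and 0.97 (SE 0.23), so that the values of the probes lay within 1 SE of each other. On both, wild type array 2 was the lowest and wild type array 3 the highest of the wild type arrays. On the second scan day the differences were 0.38 and 0.51, against 1.08 and 1.20 on the first. Whether the probes of *Camk2a* and *Camk2d* pick up signal from each other's mRNA, or from that of other CaM kinase II genes, was not tested.

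*Camk1g* encodes CaM kinase I gamma, which acts in dendrite growth, and it had the least spread of the lower members. It read -0.52, -0.51 and -0.85 in the *Khsrp*-/- mice and 0.51, 0.46 and 0.43 in the wild type mice, a gap of 0.94 between the genotypes. The means were -0.63 ± 0.20 (SD, n = 3) and 0.46 ± 0.04 (SD, n = 3), a difference of -1.09 (SE 0.16), and it was -1.16 and -0.95 on the first and second scan day.

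*Camkk1* encodes a kinase that phosphorylates CaM kinases I and IV and so stands upstream of *Camk1g* and *Camk4*. Its signal was -0.69, -0.35 and -0.87 in the *Khsrp*-/- mice and 0.30, 0.14 and 0.06 in the wild type mice, a difference of -0.80 (SE 0.18). *Camkv* encodes a pseudokinase that binds calmodulin at synapses. It read -1.25, -1.25 and -1.36 against -0.41, -0.69 and -0.30, a difference of -0.82 (SE 0.16). Neither gene showed an overlap of the genotypes, and the differences on the first and second scan day were -0.83 and -0.75 for *Camkk1* and -0.76 and -0.95 for *Camkv*. Over the 4 lower CaM kinases, the median difference was -0.83 on the first scan day and -0.93 on the second, where the other 259 lower-block probes had medians of -1.36 and -0.42. The median SD between *Khsrp*-/- arrays was 0.23 in these 4 genes, against 0.60 over those 259 probes. It was 0.27 over all probes tested and 0.22 over the higher-block members, so the small spread is not particular to the CaM kinases.

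*Camk4*, the gene of the nuclear CaM kinase IV that phosphorylates CREB, had 1 of the smaller rises among the higher-block probes. It read 0.24, 0.49 and 0.12 in the *Khsrp*-/- mice and -0.04, -0.27 and -0.06 in the wild type mice, a difference of 0.41 (SE 0.17). *Ppp3r2* encodes the second form of calcineurin B, which is known mainly from testis. It read -2.11, -1.98 and -1.49 against -2.65, -2.65 and -3.0, a difference of 0.90 (SE 0.21) that was nearly the same on both days, at 0.91 and 0.88. The probe was dim, and with normexp, a background correction that compresses low signals, the difference was 0.66.

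**Figure D2:**
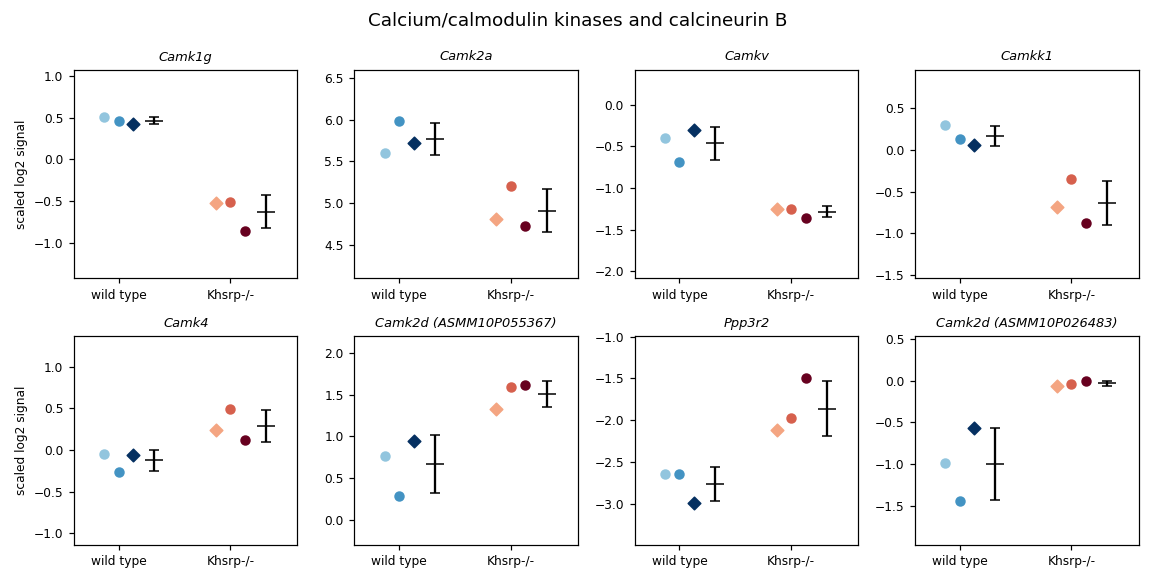
Scaled log2 signal of the 7 genes (8 probes) of CaM kinases and calcineurin B on each array, ordered from the largest fall to the largest rise, on y axes of equal span; the black marks give mean ± SD of 3 arrays and diamonds mark the second scan day. *Camk1g*, *Camk2a*, *Camkv* and *Camkk1* lie lower and *Camk4*, both probes of *Camk2d* and *Ppp3r2* lie higher in *Khsrp*-/- neocortex, with no overlap in any panel.

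MAP kinase modules pass a signal down a chain of kinases, and some dual specificity phosphatases remove it. Whether those among the members do so was not tested. All 5 members of this group came from the higher block, and their median difference was 0.66 on the log2 scale. *Map3k12* encodes the dual leucine zipper kinase, which drives JNK signals after axon injury and controls axon growth. It had the largest difference of the group, with 2.26, 2.24 and 2.72 in the *Khsrp*-/- mice and 1.37, 1.42 and 1.76 in the wild type mice, or 0.89 (SE 0.20). The lowest *Khsrp*-/- array lay 0.48 above the highest wild type array.

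The kinase JNK2 stands at the end of such a chain, and its gene changed less. *Mapk9*, which encodes it, differed by 0.37 (SE 0.15), with -0.80, -0.73 and -0.57 against -1.03, -1.18 and -1.02.

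*Dusp15*, which encodes a phosphatase found in oligodendrocytes, read 4.49, 4.71 and 4.86 in the *Khsrp*-/- mice and 3.96, 3.95 and 3.84 in the wild type mice. Its difference of 0.77 (SE 0.16) was 0.83 on the first scan day and 0.66 on the second. *Dusp22* and *Dusp23* encode small phosphatases of the same class. *Dusp22* read 1.32, 1.68 and 1.96 against 0.99, 1.02 and 1.1, a difference of 0.61 (SE 0.19). *Dusp23* read 3.45, 3.79 and 3.96 against 3.01, 2.96 and 3.22, a difference of 0.66 (SE 0.18). For both, little of the difference was seen on the second scan day, at 0.22 and 0.23, and *Khsrp*-/- array 1 lay nearest to the wild type arrays.

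The group of cell cycle, NIMA-related, CLK and DYRK kinases had 8 members, all higher, with a median difference of 0.61. NIMA-related kinases act on centrosomes, cilia and microtubules, and 4 of their genes were among the members. *Nek2* read 2.93, 2.65 and 3.32 in the *Khsrp*-/- mice and 2.17, 1.93 and 2.27 in the wild type mice, a difference of 0.84 (SE 0.21). *Nek10* read -3.72, -3.34 and -3.34 against -4.09, -3.99 and -4.46, a difference of 0.71 (SE 0.20). *Nek4* read -1.62, -1.45 and -1.33 against -2.13, -2.24 and -1.91, a difference of 0.62 (SE 0.17). *Nek10* and *Nek4* lay below the 75th percentile of the arrays, and with the normexp background correction, which compresses low signals, their differences were 0.34 and 0.41. *Nek3*, a kinase that acts on microtubules in axons, read -4.40, -4.35 and -4.37 against -4.70, -4.72 and -5.16, a difference of 0.49 (SE 0.18). *Nek3* and *Nek10* were the only members of the higher block in which the second scan day gave the larger difference, at 0.77 against 0.35 and at 0.74 against 0.70. Wild type array 3, scanned on that day, was the lowest for both genes.

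*Dyrk4* encodes a dual specificity kinase known mainly from testis. It read -1.14, -0.92 and -0.20 in the *Khsrp*-/- mice and -1.70, -1.86 and -1.79 in the wild type mice, so that *Khsrp*-/- array 3 stood above the other two. The difference was 1.03 (SE 0.25), the largest of this group. *Cdk17*, a PCTAIRE kinase of neurons, read 1.05, 1.32 and 1.35 against 0.79, 0.60 and 0.72, a difference of 0.54 (SE 0.16). *Cdkn3*, whose product removes phosphate from cyclin-dependent kinases, read -1.65, -1.39 and -1.25 against -1.95, -2.26 and -1.88, a difference of 0.60 (SE 0.18). *Clk3*, a kinase of splicing factors, read 1.02, 1.37 and 1.42 against 0.70, 0.74 and 0.98, a difference of 0.46 (SE 0.18). The gap between the genotypes was 0.04 for *Clk3*, between *Khsrp*-/- array 1 and wild type array 3.

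Protein phosphatases 1, 2A and 4 are built from a catalytic subunit and regulatory subunits that choose the substrate. The group of serine/threonine phosphatases other than calcineurin had 6 members, *Ppm1k* among them, all higher, with a median difference of 0.82. *Ppp2r3d*, a regulatory subunit of protein phosphatase 2A, read 1.84, 1.90 and 1.92 in the *Khsrp*-/- mice and 0.77, 0.83 and 0.94 in the wild type mice. Both genotypes were tight here, at 1.89 ± 0.04 (SD, n = 3) and 0.85 ± 0.08 (SD, n = 3). The difference of 1.04 (SE 0.14) was 1.11 on the first and 0.90 on the second scan day, and it ranged from 1.0 to 1.09 when single arrays were omitted. *Ppp2r2a*, another regulatory subunit of the same enzyme, read 1.15, 1.41 and 1.35 against 0.48, 0.57 and 0.77, a difference of 0.70 (SE 0.16).

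*Ppp1cb* encodes a catalytic subunit of protein phosphatase 1, and *Ppp1r12a* encodes the myosin phosphatase targeting subunit that binds it. *Ppp1cb* read 4.36, 4.62 and 4.79 in the *Khsrp*-/- mice and 3.54, 3.57 and 3.95 in the wild type mice, a difference of 0.90 (SE 0.19). *Ppp1r12a* read -0.27, -0.75 and -0.04 against -1.11, -1.33 and -0.81, a difference of 0.73 (SE 0.23). The genes of both partners were thus higher, and for *Ppp1r12a* the gap between *Khsrp*-/- array 2 and wild type array 3 was only 0.07.

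*Ppp4r1*, a regulatory subunit of protein phosphatase 4, was dim, with -3.72, -2.93 and -3.18 in the *Khsrp*-/- mice and -4.49, -4.35 and -4.24 in the wild type mice. Its difference was 1.08 (SE 0.23), and it was 0.48 when the background was corrected by the normexp method. *Ppm1k* encodes the mitochondrial phosphatase that activates breakdown of branched-chain amino acids. It read 6.59, 7.01 and 7.32 against 6.56, 6.52 and 6.57, so that *Khsrp*-/- array 1 lay only 0.02 above the highest wild type array. Its difference of 0.42 (SE 0.21) was 0.62 on the first scan day and 0.02 on the second, and it fell to 0.25 without *Khsrp*-/- array 3.

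Tyrosine phosphatases were split between the blocks. *Ptpn4*, whose protein binds glutamate receptor subunits, read -0.61, -0.56 and -0.40 in the *Khsrp*-/- mice and -1.32, -1.06 and -1.29 in the wild type mice. Its difference of 0.70 (SE 0.15) was alike on both scan days, at 0.71 and 0.67. *Ptp4a1*, a membrane-bound phosphatase linked to growth, read 5.09, 5.50 and 5.70 against 4.73, 4.83 and 4.88. Its difference of 0.62 (SE 0.19) was 0.82 on the first and 0.21 on the second scan day.

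*Ptpn21* and *Ptpn18* were lower, but unevenly. *Ptpn21*, a phosphatase of the cell cortex, read 3.96, 2.96 and 2.22 in the *Khsrp*-/- mice and 4.52, 4.75 and 3.96 in the wild type mice. *Ptpn18*, which acts on receptor tyrosine kinases, read 4.36, 3.60 and 3.05 against 4.56, 4.64 and 4.68. For both, *Khsrp*-/- arrays 2 and 3 lay far below the others, while *Khsrp*-/- array 1 lay close to the wild type arrays. The differences were -1.36 (SE 0.44) and -0.96 (SE 0.31). They were -2.04 and -1.28 on the first scan day and 0.00 and -0.32 on the second, and the non-overlap of *Ptpn21* rests on a gap that rounds to 0.00. With single arrays left out, *Ptpn21* lay between -1.82 and -0.95 and *Ptpn18* between -1.30 and -0.65. *Ptpn21* missed the unadjusted threshold without wild type array 2, at -1.19, and *Ptpn18* without *Khsrp*-/- array 2, at -0.93.

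Class I phosphoinositide 3-kinases pair a catalytic with a regulatory subunit, and both kinds were among the members. *Pik3ca*, the gene of the catalytic subunit p110 alpha, read 1.44, 1.64 and 2.0 in the *Khsrp*-/- mice and 1.05, 1.09 and 1.05 in the wild type mice, a difference of 0.62 (SE 0.18). *Pik3cb*, the gene of p110 beta, read -3.19, -3.02 and -2.69 against -2.23, -2.06 and -2.06, a difference of -0.85 (SE 0.18). The catalytic genes came from opposite blocks, which fixed their opposite directions. Since the genotypes did not overlap for either gene, the direction on each scan day was fixed as well. The differences on the first and second day were 0.75 and 0.38 for *Pik3ca* and -0.71 and -1.13 for *Pik3cb*. *Pik3cb* was a dim probe, and its difference was -0.32 with the normexp correction. *Pik3r3*, the gene of the regulatory subunit p55 gamma, read -1.62, -1.47 and -1.30 against -1.96, -1.70 and -1.78 and had the smallest difference of all members, 0.35 (SE 0.16). *Prkab1* encodes a scaffold subunit of the energy sensor AMPK, and it differed by 0.62 (SE 0.18), with 5.24, 5.31 and 5.74 against 4.81, 4.77 and 4.85.

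**Figure D3:**
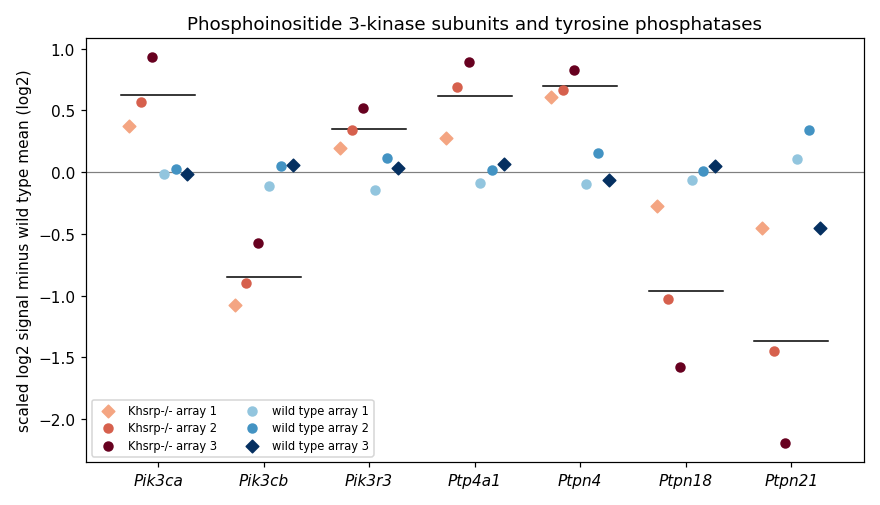
Scaled log2 signal of phosphoinositide 3-kinase subunit and tyrosine phosphatase genes on each array, minus the wild type mean of the probe (y axis, log2); black lines give the mean of the 3 *Khsrp*-/- arrays and diamonds mark the second scan day. *Pik3ca* lies above and *Pik3cb* below the wild type arrays, and *Khsrp*-/- arrays 2 and 3 of *Ptpn18* and *Ptpn21* lie far from *Khsrp*-/- array 1.

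*Pde6b*, the gene of the beta subunit of the cyclic GMP phosphodiesterase of rod photoreceptors, was the single phosphodiesterase and had the largest difference of all members. It read -3.06, -2.55 and -3.02 in the *Khsrp*-/- mice and -4.89, -4.87 and -4.50 in the wild type mice. The lowest *Khsrp*-/- array lay 1.44 above the highest wild type array. The means were -2.88 ± 0.28 (SD, n = 3) and -4.75 ± 0.22 (SD, n = 3), a difference of 1.88 (SE 0.20) or 3.67-fold, and it was 2.09 on the first and 1.44 on the second scan day. Since the wild type arrays were close to background, the size depended on its correction, and with normexp the difference was 0.72. Expression of other rod genes was not analysed here.

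Across the higher-block members the difference was larger on the first scan day for 27 of 29, with medians of 0.82 and 0.39 on the first and second day. *Khsrp*-/- array 3 was the farthest from the wild type mean for 24 and array 1 the closest for 25. The same order was seen in the other 1492 probes of the higher block, with medians of 0.70 and 0.34 and with array 1 the closest for 1046. All 36 members had the same direction on both days, with *Ptpn21* at 0.00 on the second. Since the genotypes did not overlap for any member, this was fixed in advance. The 56.0% of all probes that had the same direction is therefore no measure for it. On the second day 19 of the 29 higher-block members and 6 of the 7 lower-block members reached a difference of 0.32 in their direction, beside 26.2% of all probes, 789 of the other 1492 of the higher block and 163 of the other 259 of the lower block. The members were selected on these same arrays, so these counts are a description too. By the scan times each genotype had its own slide on the first day. The larger differences of that day thus cannot be told apart from a difference between slides.

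**Figure D4:**
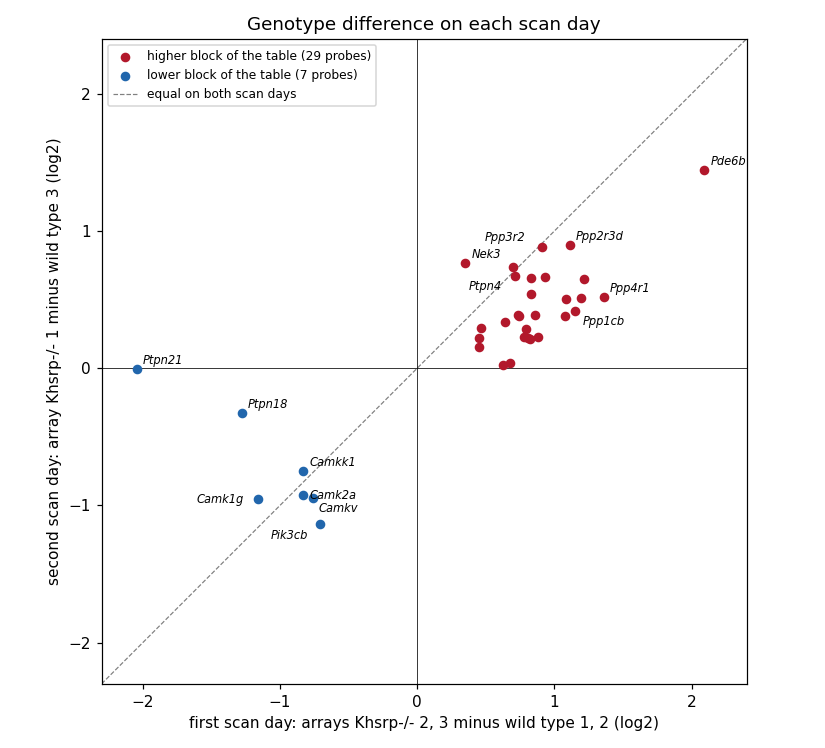
Genotype difference, *Khsrp*-/- minus wild type, of the 36 probes on the first scan day (x axis, 2 arrays against 2, log2) and on the second (y axis, 1 array against 1, log2), with the dashed line where both are equal. Most higher-block probes lie under the line, the 4 CaM kinases and *Pik3cb* of the lower block lie near or below it, and *Ptpn21* lies at 0.00 on the second day.

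Other genes of these pathways were taken from lists of 209 genes, of which 14 had a symbol in the table, all of them in the higher block. That block holds 1522 of the 1788 probes of the table, so this says nothing about the pathways. Of 92 other protein kinases 5 were named, *Fyn*, *Hipk3*, *Phkb*, *Sik3* and *Vrk1*, with differences from 0.41 for *Sik3* to 1.29 for *Vrk1*, and the genotypes overlapped for *Fyn* and *Hipk3*. Of 24 genes of calcium and calmodulin signalling 4 were named. *Nfatc2*, a transcription factor that calcineurin activates, differed by 1.39, *Ryr1*, a calcium release channel, by 0.92, *Nrgn*, a calmodulin-binding protein of dendrites, by 0.58, and *Calb1*, a calcium buffer, by 0.52.

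Of 35 genes of cyclic nucleotide signalling 4 were named. Soluble guanylate cyclase, which makes the cyclic GMP that phosphodiesterases degrade, was represented by *Gucy1a2*, *Gucy1a3* and *Gucy1b3*, with differences of 0.41 and 0.55 and, on its 2 probes, of 0.57 and 0.55. The fourth was *Crem*, a transcription factor that responds to cyclic AMP, with differences between 0.38 and 2.36 on 3 probes. Of 27 Ras and MAPK adaptor genes *Rap1b* was named, at 0.52, and of 31 lipid and other phosphatases 0 were. In all, 13 of the 14 named genes passed the unadjusted threshold with limma, beside the 9.26% of all probes, and since the names come from a table selected for change, the unnamed members may have any value.

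Of 21 marker genes of neurons, glia, endothelium and retina, 3 were named, the neuronal genes *Snap25*, at 0.55, and *Camk2a*, at -0.86, and the astrocyte gene *Slc1a2*, at 0.48. The neuronal markers came from opposite blocks and so differed in opposite directions. Oligodendrocytes, microglia and endothelium had no named marker, and the part of cell composition in these differences was not tested.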

How the data were processed

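The authors deposited the scanner output of 6 arrays, made with Agilent Feature Extraction 11.0.1.1, in which the processed signal is a background-subtracted intensity not scaled between arrays. They also deposited normalized log2 values, whose method is not given in the sources used here, and other columns that mark spots well above background, saturated or outlying. Control, negative-control and outlier spots were left out, and spots of a probe were averaged. Log2 signals were expressed relative to the 75th percentile of their own array. The genotype difference was fitted per probe (limma 3.58.1, lmFit and eBayes, R 4.3.3) over 48436 probes well above background on at least 3 arrays, with Benjamini-Hochberg adjustment over these probes. Alternatives were other scalings, normexp with an offset of 50 on median spot intensities, other filters, the methods' t-test, single arrays left out, and replicate, slide (also as a random block, statmod 1.5.0) and scan day blocks. The comparison was tested on simulated data. Tables used pandas 2.3.3 and figures matplotlib 3.10.9.

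Symbols came from the published table, as annotation only. Its lower entries carry no probe name, and all 7 members were matched to 1 probe each by their raw values, within a relative tolerance of 2e-05 after a floor of 5. Its columns of fold changes and p-values were not used. For 29 higher-block probes the symbol equalled that of the RefSeq accession. The rule for named genes took every member but 1 of the 37 probes found, which is not reported here, with its values on all arrays, and the members, lists and tests were chosen with earlier results of these data known. The replicate numbers did not pair the samples. Probe and protein sequences were not used here.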

Additional observations from a re-analysis of the deposited data

How the results depend on the processing

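The scan day as a block and the first scan day alone were chosen after the data were examined. Over the 36 members and 18 alternatives, all 646 differences kept their direction. Where arrays were left out or a fixed block was added, the non-overlap of the members had fixed this in advance. The members were also selected on these same arrays, so the kept direction is not a test. In the higher block 27 of 29 members passed the unadjusted threshold, against 13 if arrays were left unscaled and 7 under a slide block, in which the difference rests on *Khsrp*-/- array 1 and wild type array 3 alone. The median difference of these members was 0.70, and it was 0.41 and 0.39 under these alternatives. In the lower block 7 members passed, against 4 with the slide as a block, and the median was -0.86, against -1.15 without scaling, which shifts the median of all probes by -0.29. When single arrays were omitted, between 21 and 28 higher-block and between 6 and 7 lower-block members passed, with medians from 0.58 to 0.78 and from -0.95 to -0.78. After adjustment with limma 1 member passed among 46 probes, against 9 among 2046 without *Khsrp*-/- array 1, 4 among 1109 on the first scan day alone, 3 among 97 with trended and robust variances, and 0 without any other single array. It was also 0 with quantile normalization, the authors' values, no scaling and no filter on dim probes. The count was 0 as well with the replicate block, the slide as a fixed or random block and the methods' t-test. A filter on all arrays gave 0 too, but it left out *Pde6b* before the fit. Over all probes 4484 were higher and 3405 lower. These counts were 1221 and 7287 for unscaled arrays, 1762 and 1093 under the slide block and 7511 and 7008 on the first scan day alone. The count of lower probes was 2214 with the slide as a random block and 1815 with the methods' t-test, under which *Ptpn18* and *Ptpn21* did not pass. With an array left out, between 2520 and 6641 were higher and between 1495 and 6409 lower. Where fewer arrays or another scaling do not account for a shift, the cause was not tested. With the replicate block, 24 higher-block and 7 lower-block members passed, and arrays with the same number had deviations that correlated at -0.31, 0.10 and -0.31. The number of arrays and, for *Pde6b*, *Nek3*, *Nek10*, *Ppp4r1*, *Ppp3r2* and *Pik3cb*, a dim signal limit the precision.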
